A study of Mus musculus with 36 samples.

Results

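Of the 36 RNA-seq libraries of the series, 6 make up the comparison described here: HA-purified RNA from synapse-enriched diaphragm of E15.5 mouse embryos without Cre (Cre-negative, labelled Ribo-tag, n = 3) and with Cre (Cre-positive, labelled ChAT-Cre;Ribo-tag, n = 3). They were chosen by their labelled age, tissue and genotype, and not by any measured value. Both groups carry the Ribo-tag allele, in which Cre switches the ribosomal protein Rpl22 to a form with an HA tag, and neither received a treatment. The ChAT-Cre driver is active in cholinergic cells, which in the diaphragm are motor axons whose cell bodies lie in the spinal cord. The 18 diaphragm libraries of other ages (P0.5, P10 and adults of 2 months) serve as points of reference. They also enter the main fit, where they help set the spread of each gene and which genes are tested. The 3 Cre-positive spinal cord libraries of E15.5 serve only as points of reference. The labels do not say whether the libraries of a group came from separate animals, so p-values measure only the spread between these libraries.

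Tagged ribosomes are pulled down with an antibody to HA, and the RNA bound to them is sequenced. In tissue without Cre no ribosome should carry the tag, so the Cre-negative libraries hold whatever RNA the purification recovers without it, and a transcript on tagged ribosomes of motor axons would be expected at a higher share in the Cre-positive ones. At the neuromuscular junction the motor axon releases acetylcholine onto receptors clustered in the muscle membrane, and terminal Schwann cells cover the contact. At E15.5 the diaphragm is still forming fibres and its junctions are immature.

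The 6 libraries held 79.9 to 95.3 M reads (M, 1000000 reads), recovered from the deposited CPM values (a gene's reads scaled by the depth of its library). Between 23.3% and 34.2% of the 18845 genes were listed at 0 in the Cre-negative libraries and between 15.4% and 24.6% in the Cre-positive ones. Muscle markers were high in all 6 libraries: Acta1, skeletal muscle actin, had 10728, 9444 and 8928 CPM in Cre-negative replicates 1 to 3 and 8970, 7430 and 8814 CPM in Cre-positive replicates 1 to 3. In each group, the values of 1 library could be rebuilt from those of the other two. Cre-negative replicate 2 was matched by 0.268 of replicate 1 plus 0.742 of replicate 3, and lay between them for 84.8% of 12785 genes. Cre-positive replicate 3 was matched by 0.777 of replicate 1 plus 0.209 of replicate 2, and lay between them for 77.5% of 12985 genes. Such a library adds little independent spread. In every diaphragm group the library best rebuilt from the other 2 was marked as intermediate, so each group has 1 by definition. The marked libraries were not all alike. In Cre-positive diaphragm of P0.5, replicate 3 was matched by 0.994 of replicate 1 plus 0.034 of replicate 2, and lay between them for 34.5% of 11725 genes. Results are given with the marked libraries and without them. In bulk RNA, fewer cells of a type and less RNA per cell cannot be told apart.

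Across all genes, 676 were higher and 846 lower in Cre-positive than in Cre-negative diaphragm, among 13853 tested, in a limma fit of log2(CPM + 1) over all 24 diaphragm libraries with a Benjamini-Hochberg adjusted p under 0.05. That is 11% of the genes tested, 4.88% higher and 6.11% lower. The median log2 difference of all tested genes was -0.06. Scaling the libraries by TMM or RLE factors moved this median by 0.13 and 0.12 and turned the balance of the calls: 44.4% of the called genes were higher as deposited, against 60.7% with TMM and 60.6% with RLE. A direction close to 0 therefore depends on the scaling. The levels of the 3 libraries of each group did not overlap for 5334 genes, 38.5% of those tested.

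The limma fit shares 1 variance per gene over all ages, and on simulated counts it made more false calls than its nominal rate. The simulated libraries were drawn independently, with the same dispersion for every gene. They hold no intermediate libraries, so they do not give the false call rate on the present data. limma on the 6 E15.5 libraries alone (13.5% of 12296 genes called) and edgeR's quasi-likelihood test on the recovered reads (5.1% of 13853) stayed closer to their nominal rate there. A stricter rule, added after this was seen, asks for a call in the same direction by all 3 fits. It was met by 401 genes (2.89% of those tested): 205 higher (1.48%) and 196 lower (1.41%). Without the intermediate library of each E15.5 group, 261 genes were called by limma (1.92%). Without the intermediate library of every diaphragm group, 7 genes were called (0.0527%), and 1059 genes had an unadjusted p under 0.05. In the text, "called" refers to limma over all ages, and "called by all 3 fits" to the stricter rule.

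**Figure D1:**
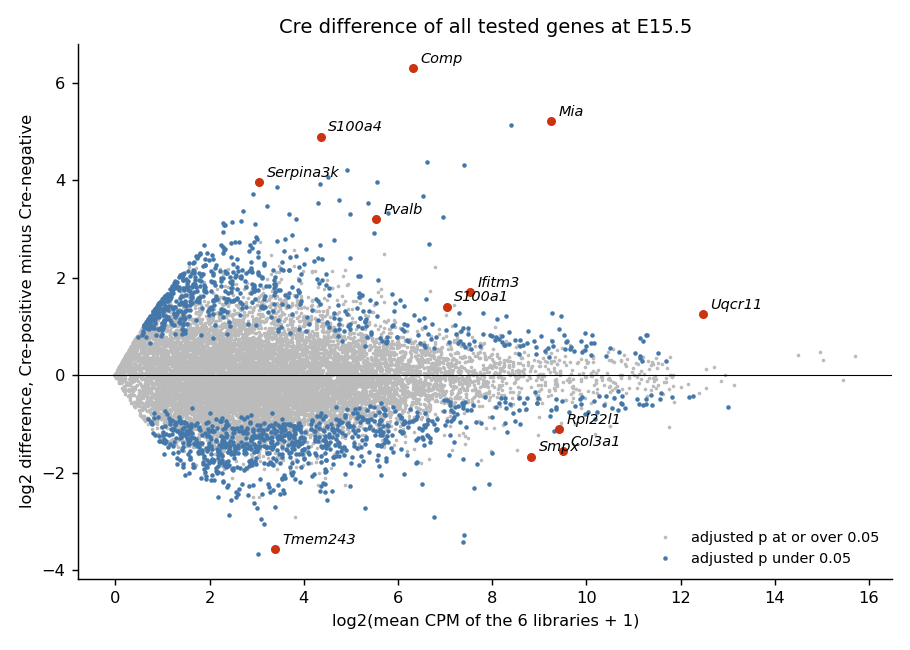
Each point is a tested gene: the x axis is log2 of its mean CPM over the 6 E15.5 libraries plus 1, and the y axis is the log2 difference, Cre-positive minus Cre-negative. Blue points have an adjusted p under 0.05 (676 higher and 846 lower), and red points are named genes, from Comp at 6.30 down to Tmem243 at -3.57.

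The 7 genes called both with and without the intermediate libraries were Pvalb, Serpina3k, S100a4, S100a1, Uqcr11 and Comp, which rose, and Smpx, which fell. All 7 were also called by all 3 fits, and remained called when any of the 6 libraries was left out. In the fit of the E15.5 libraries alone, Serpina3k, S100a4 and Comp passed the filter on low values only through the Cre-positive libraries. Their calls by that fit are therefore not given as support. Pvalb (chr15:78191112-78206400 in GRCm38), which encodes the calcium buffer parvalbumin of fast muscle fibres, had 7.73, 8.75 and 7.99 CPM in the Cre-negative libraries and 90.3, 74.5 and 84.8 CPM in the Cre-positive ones. Every Cre-positive library was far above every Cre-negative one. The log2 difference of Pvalb was 3.20 ± 0.26 (SE; limma adjusted p = 1.23e-07, and 0.0020 without the intermediate libraries). Smpx (chrX:157698973-157752591), a small muscle protein of the costamere, had 671, 693 and 710 CPM without Cre and 197, 242 and 212 CPM with it, a log2 difference of -1.67 ± 0.11 (limma adjusted p = 1.84e-08, and 0.0048 without the intermediate libraries). Smpx was the only gene of the 7 that was lower in the Cre-positive libraries.

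Serpina3k, a serine protease inhibitor of the liver and plasma (chr12:104338486-104345739), was listed at 0 in all 3 Cre-negative libraries and at 13.0, 16.1 and 14.7 CPM in the Cre-positive ones. Against the floor of 3 reads in a library of average depth this is at least 393-fold higher. Serpina3k passed the filter on low values only through Cre-positive libraries, so its p-value is not given as support. The gene has close relatives in the Serpina3 cluster, and reads could be divided among them in counting. Serpina3k was also at 0 in the Cre-negative libraries of the other ages; in the Cre-positive ones its mean was 7.41 CPM at P0.5, 0 at P10 and 11.2 CPM in adults, and it was at 0 in the E15.5 spinal cord. S100a4, a calcium-binding protein of fibroblasts and leukocytes (chr3:90603770-90606045), had 0, 0.34 and 0.58 CPM without Cre and 45.1, 23.5 and 48.3 CPM with it (log2 difference 4.90 ± 0.52, limma adjusted p = 4.52e-06). S100a1, its relative of striated muscle, had 67.1, 72.6 and 74.3 CPM against 195, 177 and 200.01 CPM (log2 difference 1.41 ± 0.12, limma adjusted p = 1.39e-07).

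Uqcr11, a small subunit of respiratory complex III (chr10:80402997-80406821), had 3804, 3269 and 3073 CPM without Cre and 8401, 7532 and 8183 CPM with it, a ratio of means of 2.38 (log2 difference 1.25 ± 0.13, limma adjusted p = 4.08e-06). Comp, a cartilage matrix protein, rose from 0.46, 0.17 and 0.03 CPM to 254, 15.45 and 204 CPM. Its Cre-positive libraries differed from each other by more than those of the other 6 genes: replicate 2 was far below replicates 1 and 3. Its log2 difference was 6.30 ± 0.66 (limma adjusted p = 4.08e-06, and 0.046 without the intermediate libraries).

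**Figure D2:**
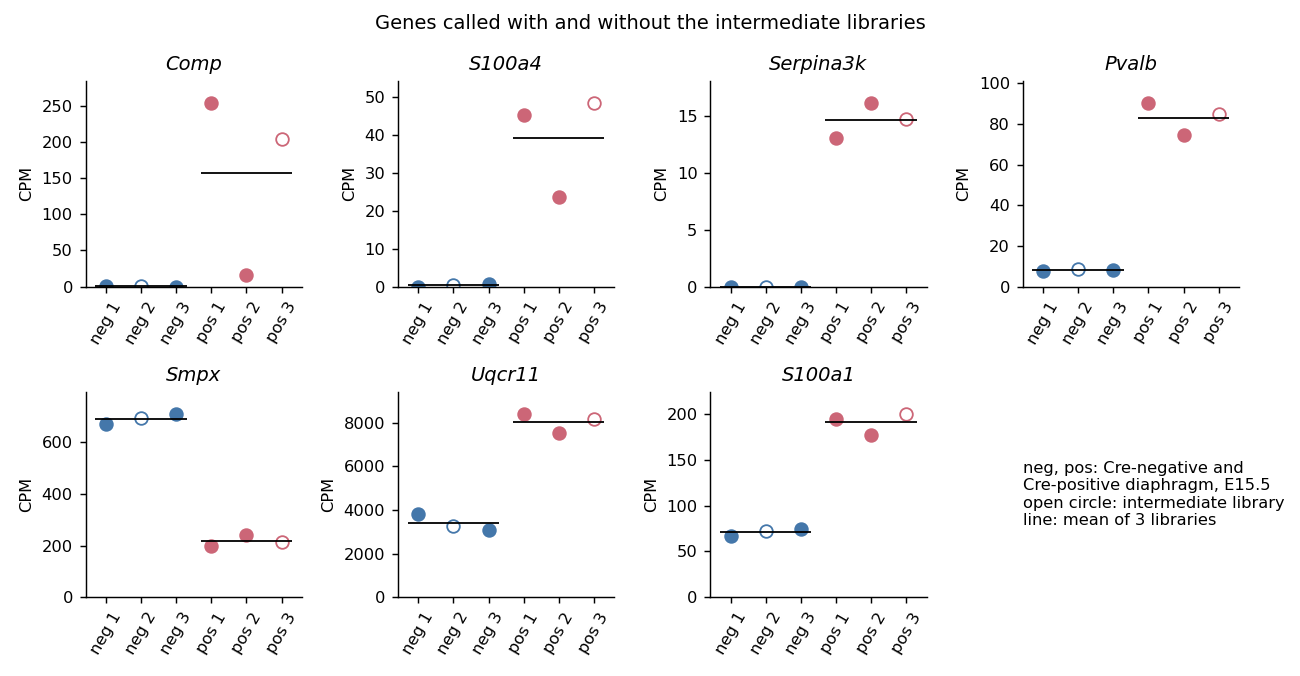
CPM of the 7 genes called with and without the intermediate libraries, 1 point per library on a linear axis from 0; open circles are the intermediate libraries and lines are means of 3. In each panel the Cre-negative (blue) and Cre-positive (red) libraries do not overlap, and in Comp the Cre-positive replicate 2 sits at 15.45 CPM against 254 and 204 CPM.

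The genes that make and load acetylcholine were at or near 0 in both groups. Chat, the enzyme that makes acetylcholine and the source of the Cre driver, was at 0 in all 3 Cre-negative libraries and at 14, 0 and 7 reads in the Cre-positive ones, at most 0.16 CPM. Slc18a3, the vesicular acetylcholine transporter, had 0 in every Cre-negative library and 0.02, 1.29 and 0.33 CPM in the Cre-positive ones. Slc5a7, the choline transporter, had 0 without Cre and 0.37, 0.18 and 0.36 CPM with it. All 3 genes fell below the filter on low values and were not tested. The levels of Chat overlapped, since Cre-positive replicate 2 was also at 0, and Cre-positive replicate 1 had 2 reads of Slc18a3, fewer than the 3 reads that a count of 0 allows. Mnx1 and Lhx3, transcription factors of motor neurons, were at 0 in all 6 libraries.

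The list for motor neurons and acetylcholine held 23 genes, of which 13 were tested; 0 were called higher and 1 lower, against 4.88% and 6.11% of all genes. Other members had higher levels, such as Isl1, Prph and the transcription factor Foxp1 (24.7 CPM without Cre and 14.25 CPM with it, means of 3). The median log2 difference of the list was -0.14. The gene called was Isl1, a LIM homeodomain factor of motor and sensory neurons, at 10.6, 23.4 and 29.1 CPM without Cre and 6.41, 6.93 and 6.93 CPM with it (log2 difference -1.40 ± 0.38, limma adjusted p = 0.020). The call was kept in 2 of the 6 fits that leave out a library, with an adjusted p of 0.083 without Cre-negative replicate 2, and Isl1 was not called by all 3 fits. Prph, the intermediate filament peripherin of peripheral axons, had 1.75, 31.1 and 41.5 CPM without Cre and 39.8, 57.6 and 41.3 CPM with it. The Prph groups overlapped, and only Cre-negative replicate 1 was low (limma adjusted p = 0.30). The list made up 0.0089% to 0.0140% of CPM in the Cre-negative libraries and 0.0099% to 0.0121% in the Cre-positive ones, against 0.886% in the E15.5 spinal cord.

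Among 28 tested genes of axons and growth cones, 2 were called higher (7.14%) and 3 lower (10.7%), against 4.88% and 6.11% of all tested genes. Of the lower ones, 2 were called by all 3 fits. Without any single Cre-positive library 1 was called higher. Ncam1, a neural and muscle cell adhesion molecule, had 287, 183 and 147 CPM without Cre and 64.0, 62.4 and 62.8 CPM with it (log2 difference -1.63 ± 0.40, limma adjusted p = 0.012, and 0.051 without Cre-negative replicate 1). Marcks, an actin-regulating substrate of protein kinase C, had 132, 163 and 167 CPM against 76.2, 62.5 and 73.0 CPM (log2 difference -1.11 ± 0.24, limma adjusted p = 0.0050). Sncg, the synuclein of sensory and motor neurons, rose from 1.04, 0.15 and 0 CPM to 14.5, 27.5 and 15.3 CPM (log2 difference 3.86 ± 0.74, limma adjusted p = 0.0021). Sncg was called by 2 of the 3 fits. None of the 3 was called without the intermediate libraries, where the limma adjusted p was 0.52 for Ncam1, 0.54 for Marcks and 0.39 for Sncg. Of 17 tested genes of synaptic vesicles and release, 0 were called in either direction, and at most 1 when a library was left out.

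A wider set, enriched in the spinal cord, was taken from libraries outside the comparison: 1385 genes with at least 10 CPM in the E15.5 spinal cord and at least 10 times the mean of the Cre-negative diaphragm at the other ages. The rule compares tissues of different age, so it does not single out neuronal genes, and the set made up 1.56% to 1.70% of CPM in the Cre-negative libraries, 2.17%, 1.52% and 2.06% in the Cre-positive ones and 19.2% in the spinal cord. Of these, 1000 were tested at E15.5; 7.9% were called higher and 6.4% lower, against 4.88% and 6.11% of all tested genes. The median log2 difference of the set was 0.01, against -0.06 for all tested genes, and 50.9% of its genes had a positive difference against 45.9%. With both limits at 50 in place of 10, 227 genes were tested, of which 7.93% were called higher and 7.49% lower; the median was -0.03 and 44.9% were positive. In the wider set, by all 3 fits 14 of the 1000 were called higher and 1 lower, against 1.48% and 1.41% of all tested genes. Leaving out the intermediate libraries left 1 call, a higher one. edgeR made 28 higher calls and 1 lower among the 1000, against 469 and 237 among all 13853 tested genes. Fkbp1b, a regulator of calcium release channels, was among those with the largest rises, from 0.93 ± 0.01 to 12.9 ± 1.82 CPM (SD, n = 3; log2 difference 2.84, limma adjusted p = 2.1e-05). Elavl2, a neuronal RNA-binding protein, was among the largest falls, from 40.1 ± 11.4 to 6.72 ± 0.18 CPM (log2 difference -2.38, limma adjusted p = 5.3e-05). Both were called by 2 of the 3 fits, and not by edgeR (adjusted p = 0.055 and 0.24). Neither was called without the intermediate libraries (limma adjusted p = 0.24 and 0.28). In the fit of the E15.5 libraries alone, Fkbp1b passed the filter on low values only through the Cre-positive libraries.

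Among 18 tested genes of the postsynaptic apparatus of the muscle, 0 were called higher and 1 lower (5.56%), against 4.88% and 6.11% of all tested genes. Lrp4, the muscle receptor for agrin, had 31.0, 21.2 and 17.1 CPM without Cre and 3.96, 7.74 and 4.91 CPM with it (log2 difference -1.88 ± 0.52, limma adjusted p = 0.024), and the call was kept in 2 of 6 fits that leave out a library (0.093 without Cre-positive replicate 1). Chrng, the fetal subunit of the acetylcholine receptor, had 27.7, 23.6 and 26.5 CPM against 50.2, 36.2 and 44.7 CPM, groups that did not overlap, with a limma adjusted p of 0.38. Chrna1, the main receptor subunit, had 5.74, 7.92 and 9.18 CPM against 8.82, 7.47 and 9.63 CPM, which overlapped. Among 17 tested Schwann cell genes 0 were called higher (2 without Cre-positive replicate 2) and 1 lower (5.88%, against 6.11% of all tested genes). The lower one was Foxd3, a neural crest factor, which fell from 7.08, 2.91 and 2.49 CPM to 0.57, 0.49 and 0.77 CPM (log2 difference -1.58 ± 0.33, limma adjusted p = 0.0041). Foxd3 was called by 2 of the 3 fits, and not without the intermediate libraries (adjusted p = 0.46). In the fit of the E15.5 libraries alone it passed the filter on low values only through the Cre-negative libraries. Erbb3, a neuregulin receptor of Schwann cells, was at 0 in all 6 libraries, and Sox10, which defines the lineage, had 0.27, 0.27 and 0 CPM without Cre and 1.79, 2.45 and 1.75 CPM with it. The Sox10 groups did not overlap, and its limma adjusted p was 0.070. In the fit of the E15.5 libraries alone Sox10 passed the filter on low values only through the Cre-positive libraries. Its p-value there is not given as support.

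Of 41 tested genes of fast and shared contractile proteins, 2 were called higher and 2 lower, 4.88% each way, against 4.88% and 6.11% of all tested genes; 4 were lower without Cre-positive replicate 1. Beside Pvalb the other that rose was Tcap, the titin cap of the Z disc, at 135, 140 and 144 CPM without Cre and 217, 240 and 204 CPM with it (log2 difference 0.65 ± 0.14, limma adjusted p = 0.0041). Mybpc1, slow myosin-binding protein C, fell from 350, 313 and 309 CPM to 210, 134 and 202 CPM (log2 difference -0.85 ± 0.17, limma adjusted p = 0.0029), and both were called by all 3 fits. Ckm, muscle creatine kinase, had 3342, 2732 and 2495 CPM against 2205, 1816 and 2104 CPM (log2 difference -0.48 ± 0.10, limma adjusted p = 0.0050), and was called by 1 of the 3. Among 12 genes of embryonic and perinatal fibres, Mybph rose (8.33% of the list) and Myh8 and Tnnt1 fell (16.7%), none by all 3 fits. Without Cre-positive replicate 2 none was called lower, against 1 or 2 without any other library. Without the intermediate libraries the adjusted p was 0.41 for Tcap, 0.41 for Mybpc1 and 0.43 for Ckm.

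Cartilage genes were among the largest rises. Of 27 tested members, 20 were called higher (74.1%, against 4.88% of all tested genes) and 0 lower. The list's median log2 difference was 2.88, against -0.06 for all tested genes. Yet 9 of the 27 had groups that did not overlap, which is 33.3%, against 38.5% of all genes. Matn1 and Matn3, both called higher, had a mean of 0 CPM in the Cre-negative libraries. The stricter rule left 3 genes, Comp, Mia and Cnmd, and without the intermediate libraries 1, Comp. In the fit of the E15.5 libraries alone, Comp passed the filter on low values only through the Cre-positive libraries. The count was 12 without Cre-positive replicate 1 and 12 without replicate 3, and 22 without replicate 2. edgeR called 7.

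The Cre-positive libraries were unlike each other here. Mia, a small protein secreted by chondrocytes, had 27.0, 19.7 and 13.9 CPM without Cre and 1888, 146 and 1567 CPM with it (log2 difference 5.21 ± 0.77, limma adjusted p = 1.86e-04, and 0.24 without the intermediate libraries). Col2a1, the main collagen of cartilage, had 72.2, 16.6 and 0.48 CPM against 988, 97.4 and 835 CPM. Matn1, a cartilage matrix protein, was at 0 in every Cre-negative library and at 71.3, 0.06 and 59.8 CPM in the Cre-positive ones. Cre-positive replicate 2 was low for all 3 genes, and for Matn1 it was close to the floor of 3 reads. Acan, the aggregating proteoglycan, had 8.44, 2.53 and 0.99 CPM against 121, 7.39 and 100.2 CPM, so that Cre-positive replicate 2 lay below Cre-negative replicate 1. Summed over the list, cartilage genes made up 0.049%, 0.021% and 0.012% of CPM without Cre and 0.576%, 0.053% and 0.479% with it.

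The share of bone genes was likewise lowest in Cre-positive replicate 2. Of 8 tested, 3 were called higher (37.5%, against 4.88% of all tested genes), with 1 without Cre-positive replicate 1 and 1 without replicate 3. The list made up 0.0405%, 0.0017% and 0.0330% of CPM in the Cre-positive libraries against 0.0046% to 0.0055% without Cre. The part of adjoining skeletal tissue in these differences was not tested. The change of the cartilage difference between ages was called for 9 of the 27 genes against the mean of the other ages and for 1, Matn1, against P0.5. The E15.5 libraries enter both of these comparisons. At E15.5 Matn1 reached the filter's 1 CPM only in Cre-positive replicates 1 and 3, so its calls are not given as support. Of the 6 fits that leave out a library, 4 tested it.

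Among pancreatic enzymes the calls went the other way. Of 18 tested members 9 were called lower (50%, against 6.11% of all tested genes) and 0 higher. The groups did not overlap for 7 of the 18 (38.9%), about the 38.5% of all tested genes, and the median log2 difference was -1.64. No member was called by all 3 fits, by edgeR or DESeq2, or without the intermediate libraries. Amy2a5, a pancreatic amylase that has near-identical copies, had 114, 328 and 389 CPM without Cre and 93.0, 0.61 and 76.9 CPM with it (log2 difference -3.43 ± 0.92, limma adjusted p = 0.020, and 0.073 without Cre-negative replicate 2). Cpa1, a carboxypeptidase, had 38.9, 65.5 and 77.3 CPM against 26.5, 0.21 and 20.8 CPM (adjusted p = 0.019, and 0.067 without Cre-positive replicate 2). Cre-positive replicate 2 was close to 0, while replicates 1 and 3 were close to Cre-negative replicate 1. The list made up 0.080%, 0.183% and 0.211% of CPM without Cre and 0.075%, 0.0135% and 0.063% with it. The count of members called fell to 3 without Cre-negative replicate 2, to 4 without replicate 3 and to 3 without Cre-positive replicate 2.

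**Figure D3:**
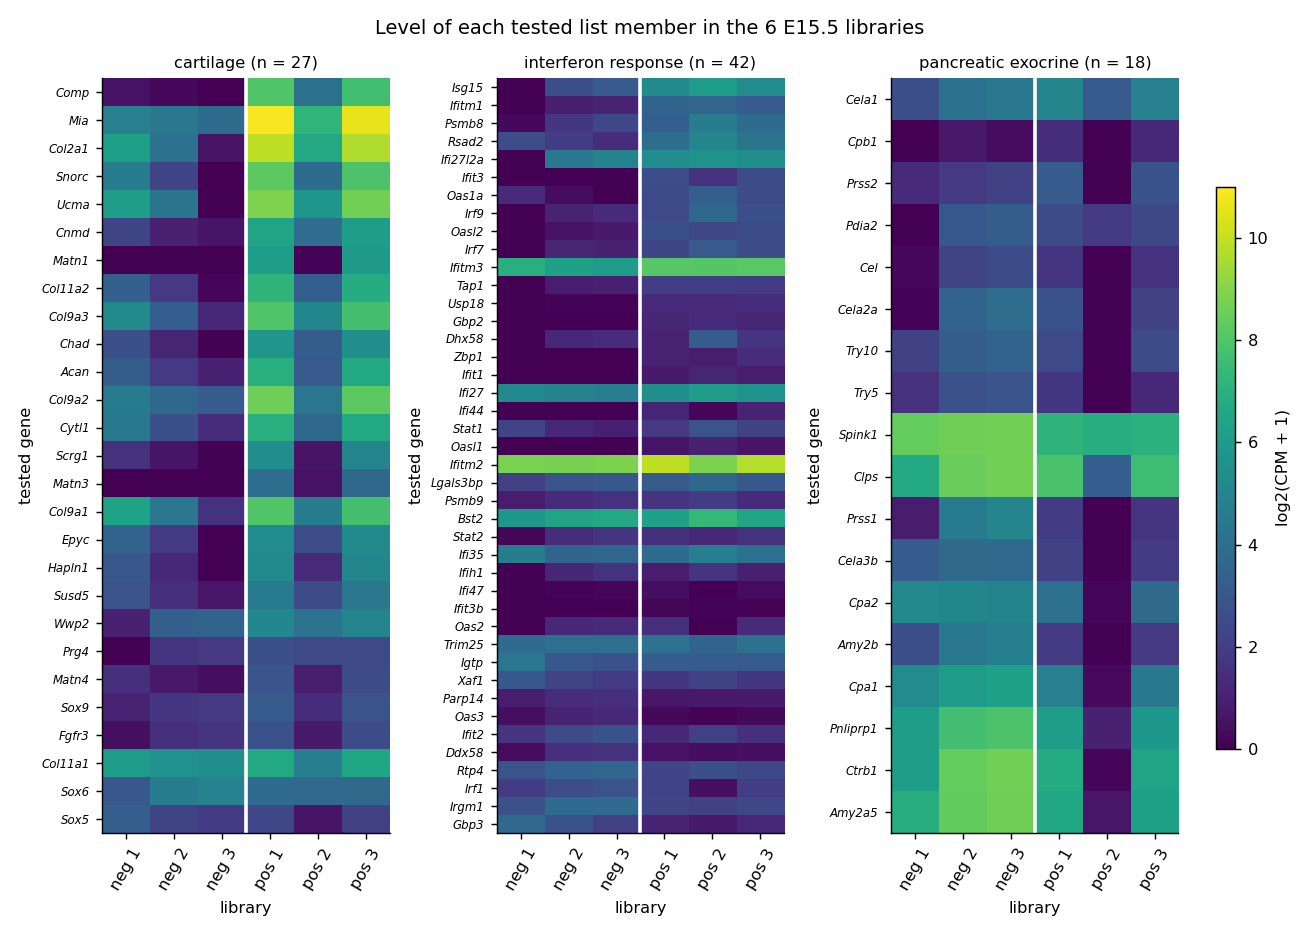
Colour gives log2(CPM + 1) of each tested member (rows, ordered by log2 difference) of the cartilage, interferon response and pancreatic exocrine lists in each of the 6 libraries (columns); the white line parts the Cre-negative from the Cre-positive libraries. Cre-positive replicate 2 is darker than replicates 1 and 3 in the cartilage panel and close to 0 for most genes of the pancreatic panel.

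Several collagens of connective tissue fell. Of 15 tested fibrillar and interstitial collagens, 4 were called lower (26.7%) and 1 higher (6.67%), against 6.11% and 4.88% of all tested genes. A positive difference was found for 6, and 3 of the lower ones, Col3a1, Col1a1 and Col5a2, were called by all 3 fits. Col3a1, the chain of collagen III, had 1070, 1102 and 1085 CPM without Cre and 308, 472 and 343 CPM with it (log2 difference -1.56 ± 0.29, limma adjusted p = 0.0015). Col1a1, of collagen I, had 937, 874 and 820 CPM against 434, 343 and 409 CPM (log2 difference -1.15 ± 0.24, limma adjusted p = 0.0046). Col5a2 had 73.0, 77.2 and 77.0 CPM against 26.3, 40.9 and 28.4 CPM (log2 difference -1.25 ± 0.28, limma adjusted p = 0.0071). All 3 kept their call when any E15.5 library was left out, and lost it without the intermediate libraries (adjusted p = 0.39, 0.42 and 0.57). The gene called higher was Col8a1, at 0.13, 1.72 and 2.16 CPM against 5.23, 4.89 and 5.25 CPM (adjusted p = 0.024, and 0.10 without Cre-negative replicate 1). Lpl, the lipase of fat and muscle, fell as well, from 259, 193 and 178 CPM to 72.0, 87.1 and 79.3 CPM (log2 difference -1.38 ± 0.21, limma adjusted p = 2.43e-04).

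**Figure D4:**
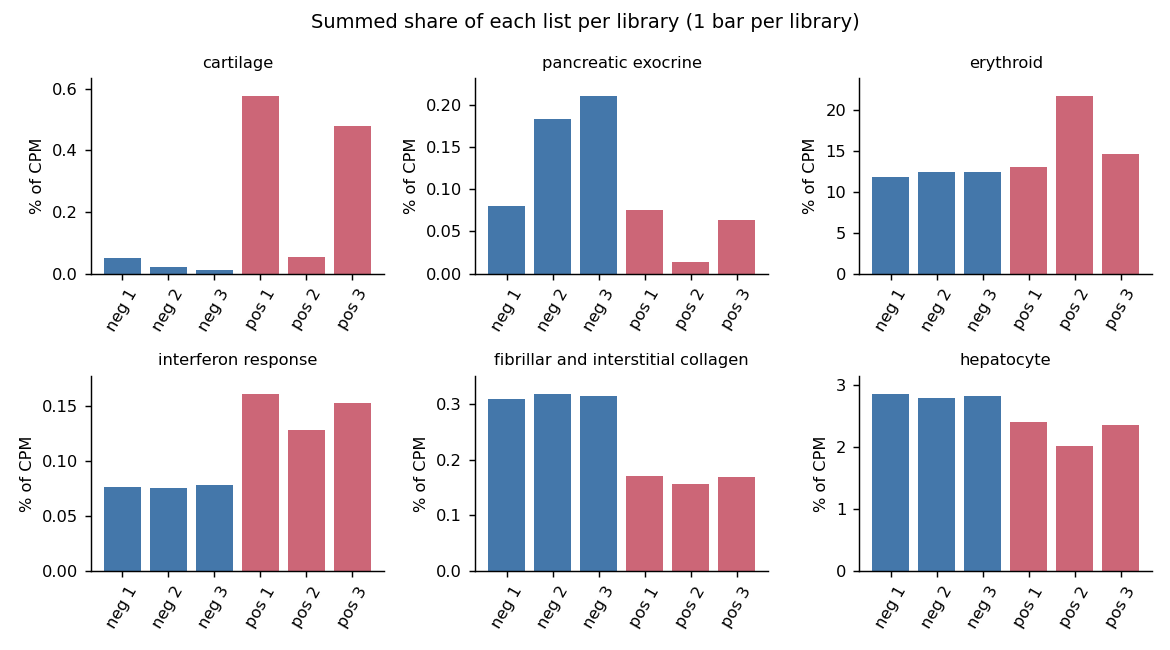
Each bar is the summed CPM of a list in 1 library, as a percent of the library's total; blue bars are Cre-negative and red bars Cre-positive, and every axis starts at 0. Collagens hold 0.309% to 0.318% without Cre and 0.157% to 0.170% with it, while the cartilage, pancreatic and erythroid shares differ most in Cre-positive replicate 2.

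Transcripts of blood and liver were abundant in all 6 libraries. Erythroid genes, mostly globins, made up 11.8% to 12.4% of CPM without Cre and 13.0%, 21.7% and 14.6% with it, the highest value in Cre-positive replicate 2. Of 19 tested, 2 were called higher (10.5%, against 4.88% of all tested genes). Only 1 was called higher in the fits without the first Cre-negative, the second Cre-positive or the third Cre-positive library. Hepatocyte genes made up 2.79% to 2.86% without Cre and 2.02% to 2.40% with it, and 0 of 31 were called by limma over all ages or by edgeR, while limma on the E15.5 libraries alone called 9 lower. Among 28 tested macrophage genes 4 were called higher (14.3%, against 4.88% of all tested genes) and 0 lower, 3 of them by all 3 fits. From 1 to 3 were called when a library was left out, with 1 without Cre-positive replicate 2. Tyrobp, a signalling adaptor of myeloid cells, had 26.9, 23.4 and 20.2 CPM without Cre and 61.2, 78.2 and 61.7 CPM with it (log2 difference 1.47 ± 0.35, limma adjusted p = 0.0093). C1qa, a chain of complement C1q, had 16.8, 21.8 and 24.4 CPM against 50.9, 59.0 and 50.8 CPM (log2 difference 1.32 ± 0.34, limma adjusted p = 0.014, and 0.051 without Cre-positive replicate 2). The log2 difference was positive for 20 of the 28 macrophage genes. Among the others, Ptprc, Cybb, Lyz1, Mrc1 and Lyz2 had -0.71, -0.59, -0.38, -0.24 and -0.21 and were not called. Of 8 tested mast cell genes 3 were called higher (37.5%, against 4.88% of all tested genes), the proteases Cma1, Mcpt4 and Mcpt8. Kit, Hdc and Gata2 had log2 differences of -0.57, -0.45 and -0.36 and were not called. Cma1 rose from 20.45, 27.2 and 34.8 CPM to 92.5, 79.6 and 92.6 CPM (log2 difference 1.68 ± 0.30, limma adjusted p = 0.0011) and was called by all 3 fits. Without the intermediate libraries the adjusted p was 0.49 for Tyrobp, 0.54 for C1qa and 0.41 for Cma1.

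Genes of the interferon response, which cells switch on after interferon binds its receptor, gave more calls up than down. Of 42 tested members 10 were called higher (23.8%, against 4.88% of all tested genes) and 1, Gbp3, lower, 31 did not pass the test, and the median log2 difference was 0.74. For 22 the Cre-positive libraries were all above the Cre-negative ones, and for 5 all below, so that 64.3% did not overlap, against 38.5% of all tested genes. By all 3 fits only Ifitm3 was called. edgeR made 5 calls, all higher, and leaving out the intermediate libraries left 0. Ifitm3, a membrane protein that restricts viral entry, had 122, 78.3 and 65.5 CPM without Cre and 281, 274 and 287 CPM with it (log2 difference 1.70 ± 0.22, limma adjusted p = 5.28e-05, and 0.20 without the intermediate libraries). Isg15, a ubiquitin-like modifier, had 0, 5.31 and 7.94 CPM against 37.3, 66.1 and 38.6 CPM (log2 difference 3.61 ± 0.70, limma adjusted p = 0.0023). Rsad2, an antiviral enzyme, had 5.10, 2.74 and 1.63 CPM against 14.3, 30.9 and 18.0 CPM (adjusted p = 0.0022), and Oas1a, an oligoadenylate synthetase, had 1.58, 0.29 and 0 CPM against 4.58, 8.78 and 4.96 CPM (adjusted p = 0.013, and 0.060 without Cre-positive replicate 2). Of the 14 tested antigen presentation genes 0 were called by limma and 2 by edgeR.

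Since interferon-regulated genes share a known DNA element, the promoters of 2 of the genes that rose are shown here. The sequences are RefSeq's, build GRCm38.p6, read 5′ to 3′ on the strand of the gene, and end before the start of the transcript; capitals mark matches, on either strand, to GAAA, any 2 bases and GAAA again, overlapping matches being joined. They lie at chr4:156200845-156200926 (minus strand) for Isg15 and chr12:26456533-26456602 (minus strand) for Rsad2.
Isg15: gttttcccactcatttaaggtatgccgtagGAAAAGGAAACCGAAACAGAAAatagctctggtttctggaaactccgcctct
Rsad2: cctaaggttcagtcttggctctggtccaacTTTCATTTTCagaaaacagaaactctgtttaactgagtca

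The element was held by 3.44% of all 32851 promoter windows of 300 bases and by 3.71% of the matched windows of tested genes. In the interferon list 33 of the 42 tested genes had a window, and 17 of these held it. Of the genes called higher 4 of 8 with a window held it, and of the others 13 of 25, so the element did not part the called from the uncalled members. A match describes the letters only.

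Ribosomal proteins, the parts of the ribosome itself, gave more lower than higher calls as deposited. Of 81 tested cytosolic ribosomal protein genes 22 were called lower (27.2%) and 5 higher (6.17%), against 6.11% and 4.88% of all tested genes. The median log2 difference of the list was -0.20. With RLE scaling the median was -0.02 and 4 were called lower and 7 higher, so the direction of the list rests on the scaling. The lower calls numbered 11 in the fit without the third Cre-positive library, and 13 in those without the second library of either group. The higher calls numbered 0 without the second Cre-negative or the third Cre-positive library, 1 without the first library of either group and 3 without the third Cre-negative library. By all 3 fits 2 were called lower and 2 higher. Rpl22l1, the paralog of the tagged Rpl22, had 892, 934 and 981 CPM without Cre and 417, 477 and 413 CPM with it (log2 difference -1.10 ± 0.22, limma adjusted p = 0.0025), was called by all 3 fits, and had an adjusted p of 0.41 without the intermediate libraries. Rpl22 itself, which carries the tag in Cre-expressing cells, had 91.1, 81.1 and 74.2 CPM against 51.1, 41.1 and 47.3 CPM (log2 difference -0.81 ± 0.25, limma adjusted p = 0.039); the groups did not overlap, but the call was lost in each of the 6 fits that leave out a library (up to 0.12, without Cre-positive replicate 2).

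Subunits of the respiratory chain moved in both directions. Of 37 tested genes of complex I 10 were called higher (27%) and 4 lower (10.8%), against 4.88% and 6.11% of all tested genes. With RLE scaling these counts were 7 and 0, and without Cre-positive replicate 2, 6 were called higher. Of 42 genes of complexes II to V, 3 were called higher (7.14%) and 10 lower (23.8%), and with RLE scaling 3 and 2. In the fits without the second Cre-negative, the first Cre-positive or the third Cre-positive library, 1 was called higher. Ndufa3, a small accessory subunit of complex I, had 1780, 1745 and 1786 CPM without Cre and 3204, 3130 and 3154 CPM with it (log2 difference 0.84 ± 0.11, limma adjusted p = 7.22e-05). Ndufa2 had 834, 795 and 762 CPM against 1426, 1380 and 1441 CPM (log2 difference 0.83 ± 0.11, limma adjusted p = 5.07e-05). Uqcrc2, a core subunit of complex III, fell from 192, 166 and 161 CPM to 91.9, 85.8 and 90.7 CPM (log2 difference -0.94 ± 0.11, limma adjusted p = 1.41e-05). All 3 were called by all 3 fits, and not without the intermediate libraries (adjusted p = 0.17, 0.20 and 0.27). In complex III, then, Uqcr11 rose while Uqcrc2 fell.

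Gene span, the length of a gene on the genome, moved with the direction of the difference. The 13 respiratory chain genes that were called higher had a median span of 3.91 kb, and the 14 called lower 9.60 kb. Over all genes the median was 22.9 kb, 12.7 kb for those called higher and 31.5 kb for those called lower. With the tested genes split by span into 5 bins of equal size, from the shortest to the longest, the share called higher went from 8.18% to 2.06%, the share called lower from 4.74% to 8.14%, and the median log2 difference from 0.08 to -0.23. With RLE scaling the share called higher went from 9.52% to 2.75%. Fibrillar collagens are long, with a median of 77.1 kb, and ribosomal protein genes short, with 3.16 kb. The part of length, or of RNA quality, in these differences was not tested.

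**Figure D5:**
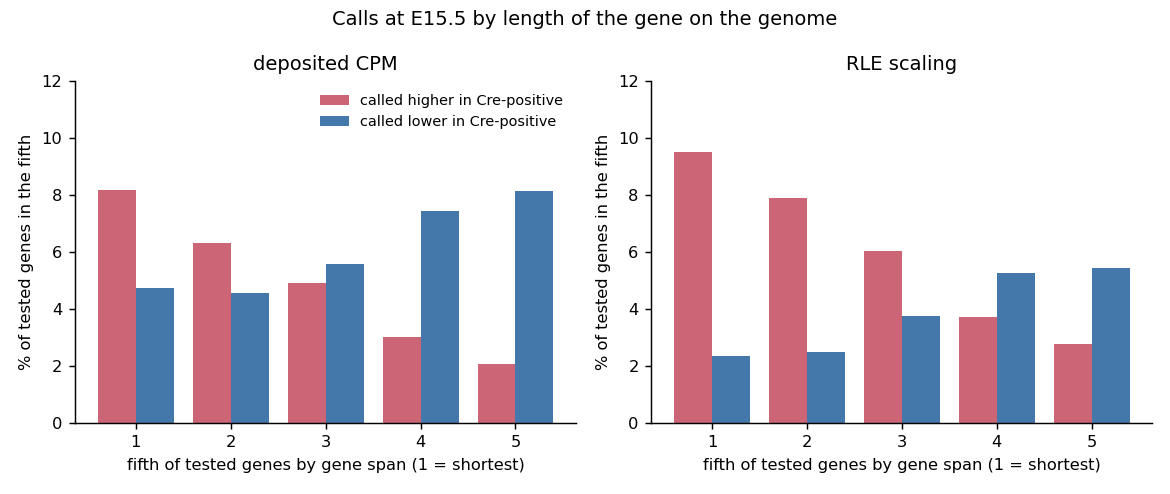
Percent of tested genes called higher (red) and lower (blue) in Cre-positive diaphragm, in 5 equal bins of the tested genes by span from the shortest (1) to the longest (5), with the deposited CPM (left) and with RLE scaling (right). As deposited, the red bars fall from 8.18% to 2.06% and the blue bars go from 4.74% to 8.14%.

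The Cre difference at E15.5 was set against that of the other ages. It differed from the P0.5 difference for 1371 genes (9.9% of 13853) and from the mean of the 3 other ages for 819 (5.91%) in the same limma fit. Without the intermediate libraries these counts were 2 (Pvalb and Apoc2) and 1 (Pvalb). Pvalb had a mean of 8.16 ± 0.53 CPM without Cre and 83.2 ± 8.02 with it at E15.5, but 444 and 289 CPM at P0.5, 1188 and 1220 CPM at P10 and 1893 and 2192 CPM in adults. Its difference at E15.5 exceeded the mean of the later ones by 3.37 on the log2 scale (limma adjusted p = 1.29e-06). Smpx was lower with Cre at every age, with 1205 against 612 CPM at P0.5, and its fall at E15.5 was larger than the mean of the others by a log2 difference of -1.13 (limma adjusted p = 3.53e-05). For Uqcr11, at 6050 CPM without Cre and 17800 with it at P0.5, the E15.5 difference did not pass the test against the other ages (log2 0.36, limma adjusted p = 0.18), and the same held for Col3a1 (log2 -0.68, limma adjusted p = 0.25).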

How the data were processed

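The authors deposited 1 table of CPM values for 18845 genes. Per the submitters' processing notes the tools included RSEM 1.2.12 as well as Bowtie2 2.2.5, with mm10 named as genome build; how they were combined is not given in the sources used here. Read counts were recovered from the steps of the CPM values (100% of values within 0.1 of a whole read at E15.5). The test was limma 3.58.1 (R 4.3.3; trend and robust) on log2(CPM + 1), for genes with 1 CPM or more in at least 3 of the 24 diaphragm libraries, with groups as coefficients. edgeR 4.0.16 and DESeq2 1.42.0 ran on the recovered reads. The design had been fixed for this fit; after simulated counts showed its excess of false calls, it was kept as the main result and the rule of 3 fits added. Lists and members were chosen with earlier results of these data known. Named genes are the 10 largest differences each way, those called without the intermediate libraries, up to 4 called members per list, members of 8 lists, and the 5 largest changes each way between ages; genes of the spinal cord set were picked by size afterwards. Replicate numbers did not pair the libraries. Gene names and spans come from RefSeq (GRCm38.p6), which held 18719 of the gene identifiers. Reads are not independent molecules, so the floor of 3 reads covers counting error only.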

Additional observations from a re-analysis of the deposited data

Results flagged for a closer look

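The Cre difference at E15.5 was tested against that at other ages in the limma fit, and the 5 largest changes in each direction are given because the ages differed by that test. Against P0.5, the difference at E15.5 was lower, at log2 values of -7.46 for Apoc2, -6.18 for Apoa1, -5.97 for Fabp1, -5.93 for Ttr and -5.70 for Afp, genes of plasma lipoproteins and other liver proteins. The mean level of Apoa1, for example, was 3898 CPM without Cre and 3387 with it at E15.5, and 16.1 ± 11.01 and 1309 ± 1493 CPM (SD, n = 3) at P0.5; the P0.5 groups were not tested on their own, and the change between ages had an adjusted p of 0.16 without the intermediate libraries. The difference was higher than at P0.5 by 6.06 for Mppe1, 5.27 for Mlkl, 5.11 for Creb3l4, 4.76 for Usp18 and 4.36 for Ankrd1. Of these, Creb3l4 had 1.02 and 1.75 CPM at E15.5 and 27.3 and 0 CPM at P0.5. Usp18 had 0.06 CPM without Cre and 1.59 CPM with it at E15.5, a log2 difference of 1.29 at that age. A large change between ages is thus not the size of the E15.5 difference.

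Against the mean of the P0.5, P10 and adult differences, the E15.5 difference was lower, at log2 values of -4.77 for Fabp1, -4.34 for Apoc4, -4.10 for Apoa1, -4.05 for Apoc3 and -3.84 for Ttr. It was higher by 4.97 for Comp, 4.81 for Rpp40, 4.26 for Matn1, 4.19 for Ifitm1 and 4.12 for Mppe1. Matn1 was at 0 in every Cre-negative library of E15.5. At that age it reached the filter's 1 CPM only in Cre-positive replicates 1 and 3, so its change is not given as support. The limma adjusted p of these changes lay between 3.3e-06 and 0.038; without the intermediate libraries, Apoc2 against P0.5 alone stayed under 0.05 among the changes that could be fitted (adjusted p = 0.0042).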

How the results depend on the processing

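All 1522 calls kept their direction wherever tested, and 7 were called without the intermediate libraries (6 higher, 1 lower). Genes called numbered 2434 with no filter, 261 (129 higher, 132 lower) without the E15.5 intermediate libraries only, 706 with edgeR and 401 (205 and 196) by 3 fits; 1245 were higher with no filter. Lower calls were 513 with pseudocount 0.1, 513 with TMM, 537 with RLE, 237 with edgeR and 543 with DESeq2. Leaving out each E15.5 library gave 693 to 1538 calls (284 to 651 higher, 391 to 1034 lower), 857 to 1783 against P0.5 and 323 to 995 against the later ages. The lowest counts came without Cre-positive replicate 3, except lower calls, without Cre-negative replicate 2; all calls numbered 828 without the latter and 853 without Cre-positive replicate 1. Against P0.5, 475 were called without the E15.5 intermediate libraries, 2 without all intermediates, and DESeq2 gave 2672. Against the later ages these were 127, 1 and 1452, with 1375 under no filter. The cause was not tested. Same-numbered libraries did not deviate together (r = 0.013, -0.0 and -0.019), so the numbers do not pair them; the replicate block gave 1457 calls (656 higher, 801 lower), 1281 against P0.5 and 733 against the later ages. The log2 difference of Pdia2, 0.16 and not called, was -0.89 and called without Cre-negative replicate 1 (up to 0.737 without another library). Of 129 called named genes, 54 stayed called with edgeR and 7 without the intermediate libraries. With 3 libraries a group the spread between them, at these depths, sets the errors given.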
